A study of Mus musculus with 6 samples.

Results

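Transcripts of 10 germline and oocyte transcription regulators were followed in fully grown mouse oocytes that lacked maternal Prdm10: Figla, Nobox, Lhx8, Sohlh1, Sohlh2, Taf4b, Tbpl2, Foxo3, Foxr1 and Gcna. The regulators were chosen by name, and rows were found by pairing the Entrez identifiers of the count tables with mouse symbols. Of the 10, 9 had a row among the 27179 identifiers counted, and Gcna was not analysed here. The knockout group comprised 3 libraries of germinal vesicle (GV) oocytes in which exon 5 of Prdm10, which encodes a PRDM family zinc finger protein, had been removed by Zp3-cre from a floxed allele. The wildtype group comprised 3 libraries of wildtype GV oocytes. Each library was made from a pool of about 10 oocytes, so the spread within a group is a spread between pools, and no single oocyte was measured. The Zp3 promoter drives Cre in growing oocytes, after the follicle has formed, so the earlier steps of oocyte formation took place before the deletion. Whether the wildtype mice carried a floxed allele or the Cre transgene, and the age and strain of the animals, are not stated in the labels. The replicates are called biological, but separate mice are not named, so the p-values refer to differences among pools, which may be technical.

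As background, a small set of DNA-binding proteins turns on the programme of the growing oocyte. FIGLA, SOHLH1 and SOHLH2 are basic helix-loop-helix (bHLH) proteins that bind E-box motifs in pairs, while NOBOX and LHX8 carry homeodomains, and mice without any one of these genes lose their oocytes early in life. TBPL2, the TATA-binding protein paralog also called TRF3 or TBP2, and TAF4B, a subunit paralog of the TFIID complex, are germline forms of the general machinery that starts transcription by RNA polymerase II. FOXO3 is a forkhead factor that holds primordial follicles dormant until the kinase AKT moves it out of the nucleus, and FOXR1 is a forkhead protein of another branch whose transcript is abundant in oocytes. GCNA is a germ cell protein that takes part in the repair of DNA-protein crosslinks.

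The promoters of 3 regulators are printed because they stand for the different outcomes described below: Foxr1, which was lower in knockout oocytes, Sohlh2, whose call depended on a single library, and Figla, whose levels were nearly the same in all 6 libraries. Sequences are from RefSeq on GRCm38.p6, each covering 250 bases before and 50 bases after the start given in that table, written 5′ to 3′ on the strand of the gene. Capitals mark E-boxes, searched as CANNTG on both strands, which is the motif of the bHLH regulators. Foxr1 lies at chr9:44440819-44441118 on the minus strand, Sohlh2 at chr3:55181794-55182093 on the plus strand and Figla at chr6:86016941-86017240 on the plus strand.
Foxr1: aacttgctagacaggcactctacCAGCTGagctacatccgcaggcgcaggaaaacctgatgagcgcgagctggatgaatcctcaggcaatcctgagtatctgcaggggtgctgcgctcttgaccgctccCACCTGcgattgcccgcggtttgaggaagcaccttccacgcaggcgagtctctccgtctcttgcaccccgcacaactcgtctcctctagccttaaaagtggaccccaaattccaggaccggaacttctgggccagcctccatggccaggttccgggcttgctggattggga
Sohlh2: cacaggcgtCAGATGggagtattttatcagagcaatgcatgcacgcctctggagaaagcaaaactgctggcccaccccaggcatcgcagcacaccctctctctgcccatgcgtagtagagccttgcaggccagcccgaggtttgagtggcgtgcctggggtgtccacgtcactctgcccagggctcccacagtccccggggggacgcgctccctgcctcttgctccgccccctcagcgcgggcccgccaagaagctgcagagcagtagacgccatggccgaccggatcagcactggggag
Figla: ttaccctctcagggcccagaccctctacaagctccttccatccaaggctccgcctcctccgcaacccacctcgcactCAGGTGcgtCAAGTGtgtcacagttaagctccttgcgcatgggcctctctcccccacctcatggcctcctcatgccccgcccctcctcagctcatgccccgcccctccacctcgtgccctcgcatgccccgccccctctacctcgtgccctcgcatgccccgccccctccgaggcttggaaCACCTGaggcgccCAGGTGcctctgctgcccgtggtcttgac
The Foxr1 window held 2 E-boxes, at 227 and 121 bases before the start, the first of them spelled CAGCTG. The Sohlh2 window held 1, at 241 bases before the start. The Figla window held 4, of which 2 lay before the start, at 173 and 164 bases, and 2 after it, at 8 and 21 bases. For Figla and Nobox the start used for the window lies inside the span of the gene, with annotated sequence of the gene further upstream, and the distances hold for the tabulated start alone.

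Over the 8 regulators with a window used here, E-boxes were found in Nobox (2), Figla (4), Foxr1 (2), Tbpl2 (5), Sohlh2 (1) and Sohlh1 (5), and none was found in Lhx8 or Foxo3. Of all 32851 promoters of the same length in the table, 72.3% held at least 1 E-box, so a match by itself is common. Sohlh1 held 3 matches to CACGTG, a form of E-box present in 7.15% of promoters. CAGCTG, present in 16.3% of promoters, occurred in Foxr1 and Tbpl2. Elements bound by NOBOX, searched as TAATTG or TAATTA, the FOXO core GTAAACA and the TATA box letters TATAAA were found in 0 of the 8 windows, against 12.4%, 3.65% and 13.6% of all promoters. The windows differed widely in base composition, with 75% GC in Foxo3 and 47% in Lhx8, beside a median of 52.7% over all promoters. The letters describe the windows only and say nothing about binding.

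**Figure D1:**
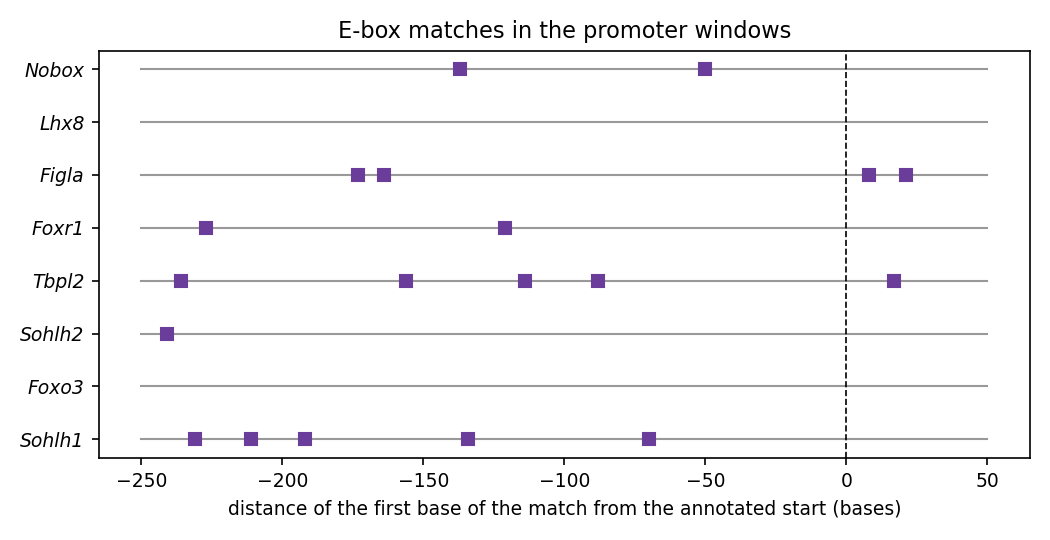
Positions of E-box matches in the windows of 8 regulators, with the distance from the annotated start in bases on the horizontal axis and 1 line per gene; each square is the first base of 1 match and the dashed line is the start. Sohlh1 and Tbpl2 had 5 matches each, while Lhx8 and Foxo3 had 0.

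The libraries held between 33698776 and 37966868 counts in the knockout group and between 22492228 and 38831227 in the wildtype group, so a single count was worth 0.0258 to 0.0445 CPM, the count of a gene scaled to the size of its library. Prdm10 itself was at 2.80, 3.82 and 3.05 CPM in the knockout libraries, against 10.4, 23.1 and 23.0 CPM in the wildtype libraries, and its fall passed the test (log2 fold change -2.54, SE 0.33, edgeR adjusted p = 0.00436). These counts cover the gene as a whole and not exon 5 alone. Wildtype replicate 1, the deepest library, stood apart: its Spearman correlation with the other wildtype libraries was 0.975 and 0.976, against 0.996 between those 2 libraries and 0.995 to 0.997 among knockout libraries. Wildtype replicates 2 and 3 correlated at 0.978 to 0.981 with the knockout libraries, so they were closer to the knockout libraries than to wildtype replicate 1. Values without wildtype replicate 1 are therefore given for each regulator and, as counts of calls, for each gene list. The 12 oocyte markers summed to 27994 to 29200 CPM in knockout and 28052 to 30332 CPM in wildtype libraries, with Gdf9, Bmp15 and Zp3 the most abundant, and edgeR called 0 of them, with 3 at an unadjusted p under 0.05 and 0 called by DESeq2 or limma-voom. Without wildtype replicate 1, however, 5 of the 12 (41.7%) were called lower, namely Bmp15, Dppa3, Zar1, Dazl and Ooep, with log2 fold changes between -0.29 and -0.16, against 17.7% of all genes called lower in that fit. Markers of granulosa and cumulus cells (18 genes) summed to 64.9 to 78.0 CPM in knockout and 70.6 to 80.6 CPM in wildtype libraries, with 6 of them under 1 CPM everywhere, Ptx3 at 0 and Ptgs2 called higher; without wildtype replicate 1, Ptgs2 and Has2 were called higher and Cyp19a1 lower. Of 10 markers of theca and stroma, 4 stayed under 1 CPM, and the sums were 6.96 to 18.8 CPM in knockout and 5.03 to 21.3 CPM in wildtype libraries. The 8 markers of blood, immune and endothelial cells with a row included Hba-a1 and Cdh5 at 0. They summed to 117 to 121 CPM in knockout and to 36.5 to 82.3 CPM in wildtype libraries, nearly all of it Pecam1, and Cd68 was called higher, joined by Pecam1 without wildtype replicate 1; the part of these cells in the results was not tested.

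Of the 9 regulators, 1 fell (Foxr1), 0 rose, and 8 did not pass the test in the comparison of knockout with wildtype oocytes. A gene passed at a Benjamini-Hochberg adjusted p under 0.05 in edgeR's quasi-likelihood test over 14957 genes, and all 9 regulators were abundant enough to be tested. The 1 of 9 (11.1%) has to be read beside the 11.2% of all tested genes that were called, 5.87% higher and 5.34% lower in knockout oocytes, so the regulators as a set were called about as often as other genes. For a rise, the count was also 0 at an unadjusted p under 0.05 and in DESeq2 and limma-voom. The log2 fold changes had a median of 0.14 over the 9 regulators and -0.002 over all tested genes, and 7 of the 9 lay within 0.5 of zero. Foxr1 was also the 1 regulator of 9 whose knockout and wildtype libraries did not overlap, a separation seen in 40.2% of all tested genes. That share applies to every such separation of single genes reported below. In pooled RNA, fewer cells of a type and less RNA per cell cannot be told apart.

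Per kilobase of exon, the 9 transcripts spanned nearly the whole range of oocyte expression. Nobox was highest, at 471 ± 22.0 CPM per kb in knockout and 433 ± 40.2 CPM per kb in wildtype libraries (here and below the SD over 3 libraries), above 99.5% and 99.4% of tested genes in those groups. Lhx8 came next, at 172 ± 5.78 CPM per kb in knockout and 156 ± 23.3 CPM per kb in wildtype libraries. Figla followed, at 49.7 ± 0.733 CPM per kb in knockout and 49.2 ± 0.983 CPM per kb in wildtype libraries. The homeobox regulators thus stood several-fold above the bHLH regulators per length. Foxr1 was at 26.7 ± 0.505 CPM per kb in knockout and 44.5 ± 11.4 CPM per kb in wildtype libraries, so its level lay clearly below that of Figla in knockout oocytes but overlapped with it in wildtype oocytes. Tbpl2 had 15.7 ± 1.17 CPM per kb in knockout and 14.0 ± 2.80 CPM per kb in wildtype libraries. Taf4b had 12.9 ± 1.17 CPM per kb in knockout and 9.20 ± 2.73 CPM per kb in wildtype libraries. These 2 germline forms of the general machinery were above 73.4% to 76.6% of tested genes in knockout and 67.0% to 74.5% in wildtype oocytes. Sohlh2 was at 4.5 ± 0.451 CPM per kb in knockout and 6.05 ± 1.21 CPM per kb in wildtype libraries. Foxo3 was at 4.09 ± 0.212 CPM per kb in knockout and 3.47 ± 0.986 CPM per kb in wildtype libraries. Both lay near the median tested gene, which was at 3.51 CPM per kb in knockout and 3.6 CPM per kb in wildtype oocytes, and Sohlh2 and Foxo3 overlapped each other in knockout libraries. Sohlh1 was lowest, at 0.567 ± 0.679 CPM per kb in knockout and 0.213 ± 0.140 CPM per kb in wildtype libraries.

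**Figure D2:**
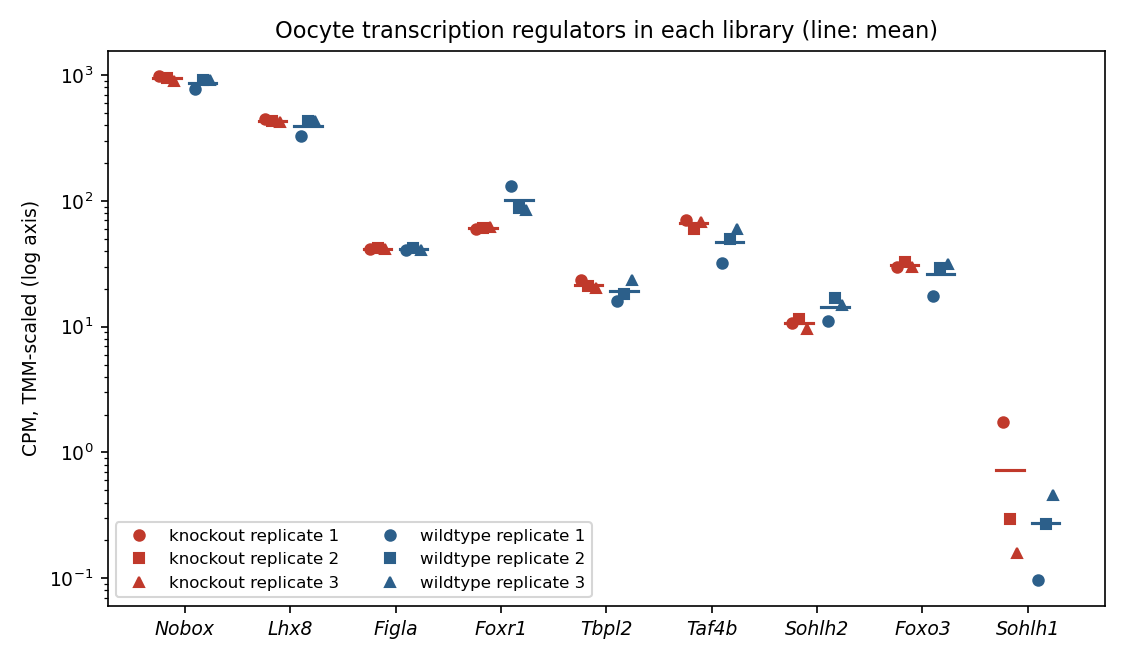
Level of each regulator in every library, as TMM-scaled CPM on a log axis, with the 3 knockout libraries (red) left of the 3 wildtype libraries (blue), a marker shape for each replicate and a line at the mean; genes run from the highest to the lowest level per length. Foxr1 had 59.9 to 62.2 CPM in knockout and 85.1 to 132 CPM in wildtype libraries, and the groups overlapped for the other 8 genes.

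Among the factors that set up the oocyte programme, Figla was the steadiest. The gene, 26910 in Entrez, lies at chr6:86016494-86020996 on the plus strand of GRCm38 and encodes the bHLH factor needed for primordial follicles and for transcription of the zona pellucida genes. Figla had 41.1, 42.2 and 41.4 CPM in knockout libraries, against 40.9, 42.0 and 40.4 CPM in wildtype libraries. The 2 groups covered the same narrow band, with a coefficient of variation of 1.47% in knockout and 2.0% in wildtype libraries. Its log2 fold change was 0.02 (SE 0.11, 95% confidence interval -0.23 to 0.27, edgeR adjusted p = 0.939), and 0.01 (adjusted p = 0.932) without wildtype replicate 1.

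Nobox (18291, chr6:43303674-43310072, minus strand), which encodes the oocyte homeobox factor acting on Gdf9, Pou5f1 and other oocyte genes, had 985, 957 and 898 CPM in knockout libraries, against 777, 917 and 917 CPM in wildtype libraries. Knockout replicate 3 lay below 2 wildtype libraries, and wildtype replicate 1 was the lowest of all 6. The log2 fold change of Nobox was 0.12 (SE 0.12, interval -0.15 to 0.40, edgeR adjusted p = 0.529), and 0.04 (adjusted p = 0.560) without wildtype replicate 1. Lhx8 (16875, chr3:154306288-154330560, minus strand) encodes a LIM homeodomain factor that early oocytes need. Its transcript stood at 450, 434 and 421 CPM in knockout libraries, against 327, 430 and 429 CPM in wildtype libraries. Again wildtype replicate 1 alone was low while the other 5 libraries lay close together. The log2 fold change of Lhx8 was 0.14 (SE 0.14, interval -0.18 to 0.46, edgeR adjusted p = 0.537), and 0.02 (adjusted p = 0.830) without wildtype replicate 1.

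Sohlh1 and Sohlh2, the bHLH pair best known from early germ cell differentiation, behaved differently from each other in abundance and in spread. Sohlh2 (74434, chr3:55182044-55209957, plus strand) had 10.8, 11.6 and 9.51 CPM in knockout libraries, against 11.2, 16.8 and 14.9 CPM in wildtype libraries. The groups overlapped through wildtype replicate 1, which lay below knockout replicate 2. With all 6 libraries Sohlh2 did not pass the test, with a log2 fold change of -0.42 (SE 0.18, interval -0.85 to 0.00, edgeR adjusted p = 0.175). Without wildtype replicate 1 it was called lower, at -0.58 (SE 0.12, edgeR adjusted p = 0.00417), in a fit that called 34.4% of all tested genes, 16.7% higher and 17.7% lower.

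Sohlh1 (227631, chr2:25842995-25847248, minus strand) rested on few reads, with 59, 11 and 6 counts in knockout libraries and 4, 7 and 10 counts in wildtype libraries. In CPM this was 1.74, 0.294 and 0.159 in knockout, against 0.0961, 0.270 and 0.457 in wildtype libraries. Knockout replicate 1 alone was high, and the other 2 knockout libraries lay within the wildtype range. The log2 fold change of 1.51 (SE 0.97, interval -0.73 to 3.75, edgeR adjusted p = 0.337) became -0.16 (adjusted p = 0.923) without knockout replicate 1, so neither its size nor its sign was settled, and it was 0.99 (adjusted p = 0.420) without wildtype replicate 1.

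Both germline forms of the general machinery had a positive log2 fold change, and neither passed the test. Taf4b (72504, chr18:14783201-14960424, plus strand), whose loss leaves mice short of primordial follicles, had 71.1, 59.6 and 68.6 CPM in knockout libraries, against 32.1, 50.2 and 59.8 CPM in wildtype libraries. Wildtype replicate 3 reached just above knockout replicate 2, and wildtype replicate 1 was far below all others. The log2 fold change of Taf4b was 0.49 (SE 0.22, interval -0.02 to 1.0, edgeR adjusted p = 0.188), and without wildtype replicate 1 it was 0.27 (adjusted p = 0.0506). Its ubiquitous paralog Taf4 went the other way in value, with 50.5, 51.8 and 50.3 CPM in knockout libraries, against 87.0, 66.5 and 62.4 CPM in wildtype libraries (log2 fold change -0.50, SE 0.15, edgeR adjusted p = 0.0704). All knockout libraries lay below all wildtype libraries for Taf4, although the gene was not called and 40.2% of all tested genes had groups that did not overlap.

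The ratio of the paralogs within a library does not depend on how libraries are scaled. The log2 ratio of Taf4b to Taf4 counts was 0.49, 0.20 and 0.45 in knockout libraries, against -1.44, -0.41 and -0.06 in wildtype libraries. Every knockout value was above every wildtype value. Knockout libraries averaged 0.38 ± 0.16, and wildtype libraries averaged -0.63 ± 0.72 (SD over 3 libraries). The difference of 1.01 had an exact two-sided permutation p of 0.1, which 3 against 3 libraries cannot go below, and 0.2 after adjustment over the 2 ratios. Per length, Taf4b stood at 1.03 to 1.26 times Taf4 in knockout and 0.332 to 0.860 times Taf4 in wildtype oocytes. Where these values lie relative to 1 depends on the exon lengths used, so which paralog is more abundant was not settled. Without wildtype replicate 1 the difference in the log2 ratio of counts was 0.61, with the libraries still apart.

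Tbpl2 (227606, chr2:24071366-24096595, minus strand), which replaces TBP in the transcription of growing mouse oocytes, had 23.4, 21.2 and 20.3 CPM in knockout libraries, against 16.1, 18.3 and 23.6 CPM in wildtype libraries. Wildtype replicate 3 was the highest of all 6 libraries and wildtype replicate 1 the lowest. Its log2 fold change was 0.17 (SE 0.17, interval -0.23 to 0.56, edgeR adjusted p = 0.544), and 0.05 (adjusted p = 0.786) without wildtype replicate 1. Tbp itself had 140, 156 and 156 CPM in knockout libraries, against 128, 155 and 159 CPM in wildtype libraries (log2 fold change 0.03, edgeR adjusted p = 0.890). The log2 ratio of Tbpl2 to Tbp counts was -2.58, -2.88 and -2.94 in knockout libraries, against -2.99, -3.09 and -2.75 in wildtype libraries. The groups overlapped, with a difference of 0.14 (exact two-sided permutation p = 0.4, also after adjustment over the 2 ratios). Tbpl2 thus had fewer counts than Tbp in every library. Divided by the union of all annotated exons of each gene, Tbpl2 was at 1.28 to 1.65 times Tbp in knockout and 1.16 to 1.46 times Tbp in wildtype oocytes. That order depends on the exon length used, which can exceed the length of the transcript in oocytes, so which of the 2 is more abundant was not settled.

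**Figure D3:**
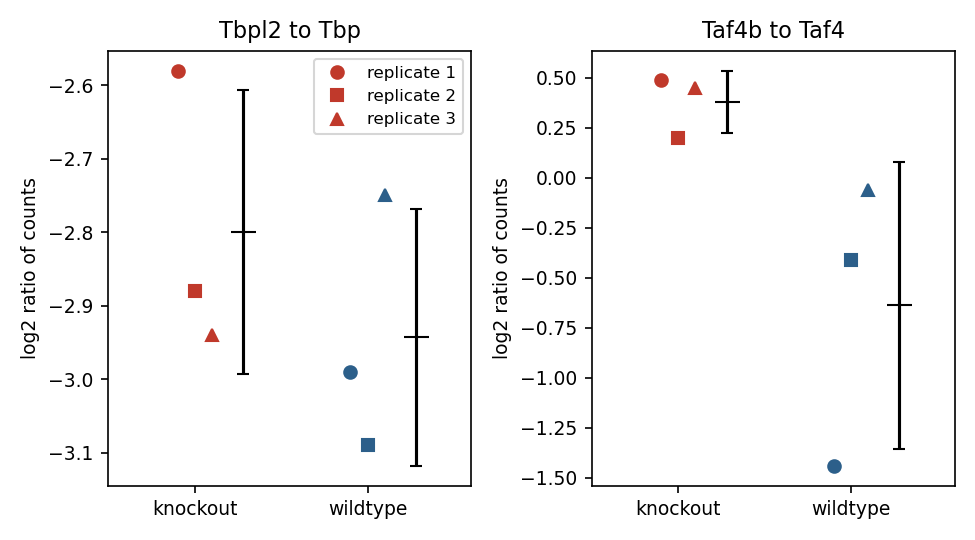
Log2 ratio of counts within each library, for Tbpl2 over Tbp (left) and Taf4b over Taf4 (right), with knockout libraries (red) left of wildtype libraries (blue) and the mean ± SD of 3 libraries in black; the vertical axes differ in range. For Taf4b over Taf4 the knockout libraries lay at 0.20 to 0.49, above the wildtype libraries at -1.44 to -0.06, while the groups overlapped for Tbpl2 over Tbp.

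Foxr1 was the 1 regulator that fell. The gene (382074) lies at chr9:44434234-44440868 on the minus strand of GRCm38, and its exons span 2291 bases in all and share none with another gene. In zebrafish, foxr1 is a maternal-effect gene. Foxr1 had 59.9, 61.3 and 62.2 CPM in knockout libraries, against 132, 88.6 and 85.1 CPM in wildtype libraries. The knockout libraries lay within a coefficient of variation of 1.89%, all below the wildtype libraries, among which replicate 1 was far above the other 2. Knockout oocytes averaged 61.2 ± 1.16 CPM, against 102 ± 26.2 CPM in wildtype oocytes (SD over 3 libraries), a 1.67-fold fall (log2 fold change -0.74, SE 0.18, interval -1.16 to -0.32, edgeR adjusted p = 0.0392). Of all tested genes, 7.47% fell by as much or more. Without wildtype replicate 1 the fall was smaller and its error smaller too (-0.51, SE 0.07, edgeR adjusted p = 0.000174). The call was lost when any knockout library was left out (adjusted p = 0.158, 0.156 and 0.136 without knockout replicates 1 to 3) and without wildtype replicate 2 (adjusted p = 0.0558). Over 14 alternatives the log2 fold change stayed between -0.85 and -0.51 and the adjusted p between 0.000174 and 0.158, with 6 of the 14 making the call.

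Foxo3 (56484, chr10:42181845-42276695, minus strand), the guard of follicle dormancy, had 29.9, 32.8 and 30.1 CPM in knockout libraries, against 17.7, 29.3 and 31.7 CPM in wildtype libraries. Except for wildtype replicate 1, the libraries lay within a few CPM of each other. The log2 fold change of Foxo3 was 0.24 (SE 0.21, interval -0.25 to 0.73, edgeR adjusted p = 0.484) with all libraries and 0.02 (adjusted p = 0.884) without wildtype replicate 1.

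**Figure D4:**
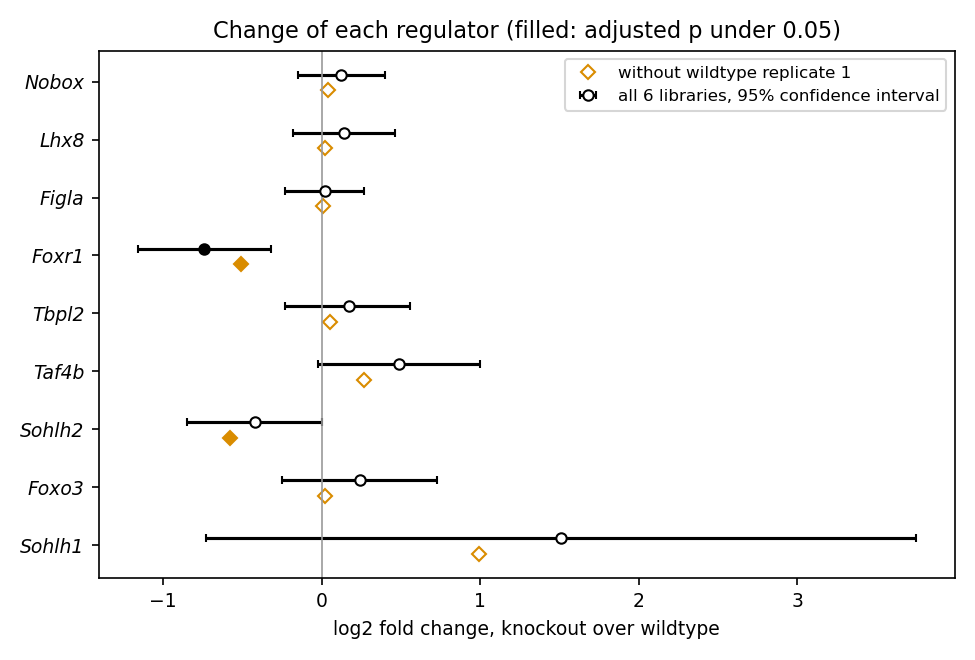
Log2 fold change of each regulator, knockout over wildtype, with its 95% confidence interval from all 6 libraries (circles) and the value without wildtype replicate 1 (diamonds); filled symbols have an adjusted p under 0.05 and the vertical line marks no change. Foxr1 was at -0.74 with all libraries and -0.51 without that library, and Sohlh2 was filled only among the diamonds, at -0.58.

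Wildtype replicate 1 differed from the other wildtype libraries for most regulators, but for Figla it lay between them (40.9, against 42.0 and 40.4 CPM). Relative to the mean of wildtype replicates 2 and 3, it was lower for 8 of 9 regulators, by log2 values of -0.77 for Taf4b, -0.76 for Foxo3, -0.53 for Sohlh1, -0.48 for Sohlh2, -0.39 for Lhx8, -0.37 for Tbpl2, -0.24 for Nobox and -0.01 for Figla. Foxr1 alone among the 9 was higher in it, by 0.60, a difference reached or passed upward by 14.4% of tested genes. The value for Sohlh1 rested on 4 counts, against 7 and 10 counts. The median difference was -0.39 over the regulators and -0.00 over all tested genes. Coefficients of variation were accordingly larger in the wildtype than in the knockout group for 8 of the 9, for example 5.20% in knockout and 28.4% in wildtype libraries for Foxo3, with Sohlh1 the exception at 120% in knockout and 65.9% in wildtype libraries. Without wildtype replicate 1 the median log2 fold change of the regulators was 0.02.

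The partners and targets of the oocyte factors were read from the same fit. Of 13 partners of bHLH and LIM homeodomain factors (E proteins, ID inhibitors and LIM-binding cofactors), 1 fell and 0 rose, which is 7.69%, and 6 had an unadjusted p under 0.05. The count of rises was 3 in DESeq2 and 0 in limma-voom. The one that fell was Tcf4, an E protein that can pair with other bHLH factors, at 1.15, 1.31 and 1.43 CPM in knockout libraries, against 4.25, 2.58 and 3.29 CPM in wildtype libraries. Tcf4 was low in all knockout libraries (log2 fold change -1.38, SE 0.25, edgeR adjusted p = 0.0143), and its call was lost without any 1 of the knockout libraries (largest adjusted p = 0.0829). None of the 4 genes for ID proteins, which hold E proteins in inactive pairs, passed the test, and their values went both ways. Id3 had 26.1, 19.9 and 20.1 CPM in knockout libraries, against 15.7, 8.13 and 11.4 CPM in wildtype libraries (log2 fold change 0.90, edgeR adjusted p = 0.0542). Id1 had 2.95, 2.64 and 2.57 CPM in knockout libraries, against 1.90, 0.963 and 1.05 CPM in wildtype libraries (log2 fold change 1.02, edgeR adjusted p = 0.0600). For both, every knockout library was above every wildtype library, and 40.2% of all tested genes had groups that did not overlap. Id4 had 0.295, 0.240 and 0.318 CPM in knockout libraries, against 0.432, 0.809 and 0.869 CPM in wildtype libraries (log2 fold change -1.26, edgeR adjusted p = 0.0765). Its knockout libraries were all below its wildtype libraries, at levels that rest on few reads. Id2, like Id4 named after its values were seen, had a log2 fold change of -0.22 (edgeR adjusted p = 0.714) with overlapping groups. Leaving out wildtype replicate 1 gave -1.17 for Tcf4 (edgeR adjusted p = 0.00247), called Id1 (1.43) and Id3 (1.18) higher and Id4 (-1.55) lower, and turned the sign of Id2 (0.36, not called). Over the 13 partners that fit called 5 higher and 2 lower, which is 38.5% and 15.4%, against 16.7% and 17.7% of all genes.

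Of 26 oocyte genes linked in mouse to FIGLA, NOBOX, LHX8 or SOHLH factors, 2 fell (7.69%), 0 rose and 24 did not pass. The median log2 fold change of the 26 was 0.01, and 7 had an unadjusted p under 0.05. DESeq2 called 3 lower and limma-voom 2, and neither called a rise. Mos, the kinase that holds the mature egg in metaphase arrest, had 564, 720 and 701 CPM in knockout libraries, against 1083, 972 and 991 CPM in wildtype libraries. Fgf8, an oocyte-secreted growth factor that acts on cumulus cells, had 99.7, 129 and 116 CPM in knockout libraries, against 221, 172 and 186 CPM in wildtype libraries. Both were lower in every knockout library than in any wildtype library, with log2 fold changes of -0.62 for Mos (SE 0.13, edgeR adjusted p = 0.0274) and -0.75 for Fgf8 (SE 0.15, adjusted p = 0.0209). Of 6 fits that each left out 1 library, 1 called Mos and 2 called Fgf8, with adjusted p up to 0.112 and 0.104. Oog1, an oocyte gene, did not pass, at 45.5, 52.0 and 53.2 CPM in knockout libraries, against 60.5, 64.7 and 72.2 CPM in wildtype libraries (log2 fold change -0.39, edgeR adjusted p = 0.0905). Some targets gave values near zero: the log2 fold change was 0.11 for Zp2, a zona pellucida gene under FIGLA (edgeR adjusted p = 0.644), 0.08 for Gdf9 (adjusted p = 0.725) and 0.03 for Pou5f1 (adjusted p = 0.943), both under NOBOX. Others had larger values without passing, such as 0.57 for Padi6 (edgeR adjusted p = 0.12), 0.64 for Nlrp5 (adjusted p = 0.22) and -0.57 for Oosp1 (adjusted p = 0.201). These genes and the following were named after their values were seen. Bmp15 had 5175, 4821 and 4722 CPM in knockout libraries, against 2106, 5606 and 5370 CPM in wildtype libraries, and Kit, the receptor gene linked to the SOHLH factors and LHX8, had 465, 398 and 398 CPM in knockout libraries, against 167, 480 and 461 CPM in wildtype libraries. In both, wildtype replicate 1 was less than 0.5 times any other library. When wildtype replicate 1 was left out, Mos was at -0.57 and Fgf8 at -0.64, both called, and of the 26 genes 2 (7.69%) were called higher and 11 (42.3%) lower, against 16.7% and 17.7% of all genes. The 2 called higher were Padi6 (log2 fold change 0.36) and Nlrp5 (0.32). In that fit Bmp15 was among those lower (log2 fold change -0.16, edgeR adjusted p = 0.0318), while Kit (-0.16), Zp2 (0.02), Gdf9 (-0.03) and Pou5f1 (0.16) were not called.

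The general machinery around TBPL2 and TAF4B passed the test in 0 of 24 genes, with a median log2 fold change of 0.07, although 5 had an unadjusted p under 0.05, DESeq2 called 1 higher and 1 lower, and limma-voom called 0. Gtf2b, which encodes TFIIB, had 720, 796 and 803 CPM in knockout libraries, against 586, 630 and 629 CPM in wildtype libraries (log2 fold change 0.33, edgeR adjusted p = 0.0956). Taf3, which encodes the TFIID subunit that reads trimethylated histone H3, had 225, 257 and 263 CPM in knockout libraries, against 393, 306 and 302 CPM in wildtype libraries (log2 fold change -0.43, edgeR adjusted p = 0.0987). Neither gene's groups overlapped, a separation seen in 40.2% of all tested genes. Leaving out wildtype replicate 1 gave 4 calls higher (Taf8, Taf9b, Gtf2b and Gtf2f1) and 3 lower (Taf3, Taf4 and Taf13).

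The kinase pathway that controls FOXO3 gave 2 falls and 0 rises among 23 genes, which is 8.70%, while 8 had an unadjusted p under 0.05 and a rise was called for 0 by DESeq2 and 1 by limma-voom. Both that fell act between the receptor and AKT. Pdpk1, whose product phosphorylates AKT, had 95, 105 and 106 CPM in knockout libraries, against 144, 145 and 164 CPM in wildtype libraries (log2 fold change -0.56, SE 0.12, edgeR adjusted p = 0.0233). Pik3r1, the regulatory subunit of PI3-kinase, had 84.7, 97.1 and 97.8 CPM in knockout libraries, against 157, 133 and 132 CPM in wildtype libraries (log2 fold change -0.60, SE 0.13, edgeR adjusted p = 0.0262). Knockout libraries were below wildtype libraries throughout, and each of the 2 genes was called in 1 of the 6 fits that left out a library, the fit without wildtype replicate 1, with adjusted p up to 0.122 for Pdpk1 and 0.126 for Pik3r1. Igf1r had 10.7, 9.06 and 10.5 CPM in knockout libraries, against 17.9, 12.4 and 12.7 CPM in wildtype libraries (log2 fold change -0.51, edgeR adjusted p = 0.116). In the fit without wildtype replicate 1, 4 of the 23 were called higher and 3 lower, and the log2 fold changes were -0.60 for Pdpk1 and -0.51 for Pik3r1.

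Of 16 tested FOXO relatives and targets among 18 listed, 1 fell (6.25%), 0 rose and 15 did not pass. Of the 16, 5 had an unadjusted p under 0.05. DESeq2 called 1 higher and 2 lower, and limma-voom called 1 higher and 1 lower. Bcl6, a transcriptional repressor known as a FOXO target, had 0.472, 0.427 and 0.530 CPM in knockout libraries, against 1.49, 2.50 and 2.56 CPM in wildtype libraries. All knockout libraries were below all wildtype libraries (log2 fold change -2.17, SE 0.31, edgeR adjusted p = 0.00597), and Bcl6 was called in all 6 fits that left out a library, although its level rested on few reads. Foxo1, a relative of Foxo3, had 294, 282 and 284 CPM in knockout libraries, against 416, 355 and 349 CPM in wildtype libraries (log2 fold change -0.38, edgeR adjusted p = 0.0790). Klf6 had 6.13, 5.40 and 4.77 CPM in knockout libraries, against 3.99, 2.73 and 3.38 CPM in wildtype libraries (log2 fold change 0.68, edgeR adjusted p = 0.0703). Bcl6 was at -2.40 without wildtype replicate 1, where 4 of these genes were called higher and 3 lower.

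Other transcription regulators of the oocyte gave 2 rises and 1 fall among 21 genes (14.3%), with a median log2 fold change of -0.18. Of the 21, 6 had an unadjusted p under 0.05, and DESeq2 and limma-voom each called 2 higher and 1 lower. Gata4, a zinc finger factor better known from the somatic cells of the ovary, had 36.8, 41.1 and 42.2 CPM in knockout libraries, against 21.6, 23.0 and 22.5 CPM in wildtype libraries (log2 fold change 0.84, SE 0.12, edgeR adjusted p = 0.00625). Trp63, whose TAp63 form guards oocytes against DNA damage, had 57.8, 54.8 and 54.4 CPM in knockout libraries, against 29.9, 36.5 and 39.3 CPM in wildtype libraries (log2 fold change 0.66, SE 0.14, edgeR adjusted p = 0.0242). Trp73, its relative, had 10.6, 4.94 and 4.93 CPM in knockout libraries, against 33.5, 27.1 and 24.3 CPM in wildtype libraries (log2 fold change -2.06, SE 0.32, edgeR adjusted p = 0.00884). The groups did not overlap for any of the 3 genes, a separation seen in 40.2% of all tested genes. Of the 6 fits that left out a library, 5 called Gata4, 5 called Trp73 and 2 called Trp63; without knockout replicate 2 the adjusted p was 0.0538 for Gata4 and 0.0510 for Trp73, and for Trp63 it reached 0.116. Of the granulosa markers, Cyp19a1 was at 25.1 to 30.6 CPM in knockout libraries, below Gata4, and 27.1 to 47.3 CPM in wildtype libraries, above Gata4. Inha, at 10.2 to 18.6 CPM in knockout and 11.1 to 17.1 CPM in wildtype libraries, was below Gata4 in all 6. Fshr was at 1.0 to 2.28 CPM in knockout and 0.640 to 1.30 CPM in wildtype libraries, Foxl2 was below 1 CPM in all 6, and Ptgs2 was called higher (log2 fold change 1.47, edgeR adjusted p = 0.0446). The part of granulosa cells in the value of Gata4 was not tested. Without wildtype replicate 1 the log2 fold changes were 0.82 for Gata4, 0.55 for Trp63 and -1.92 for Trp73, all called, and 2 of the 21 genes were called higher and 5 lower (Trp73, Nr6a1, Bnc1, Ctcf and Sp1).

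Gcna was not analysed here, and the repair of DNA-protein crosslinks, in which its product acts, was read from 12 other genes, of which 1 fell, 0 rose and 11 did not pass (8.33% called), with 3 at an unadjusted p under 0.05 and no rise called by DESeq2 or limma-voom. Top2b, a DNA topoisomerase, had 15.8, 13.8 and 13.6 CPM in knockout libraries, against 19.2, 23.0 and 21.6 CPM in wildtype libraries (log2 fold change -0.56, SE 0.14, edgeR adjusted p = 0.0391). Every knockout library was lower, but 1 of the 6 fits that left out a library made the call, with adjusted p up to 0.158. Top2a had 72.8, 75.0 and 79.1 CPM in knockout libraries, against 92.2, 97.3 and 87.8 CPM in wildtype libraries (log2 fold change -0.29, edgeR adjusted p = 0.128). Tdp1, which removes topoisomerase 1 from DNA ends, had 141, 121 and 119 CPM in knockout libraries, against 91.0, 109 and 106 CPM in wildtype libraries (log2 fold change 0.32, edgeR adjusted p = 0.154). Of the 12, 3 were called higher and 4 lower without wildtype replicate 1, with Top2b at -0.63.

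**Figure D5:**
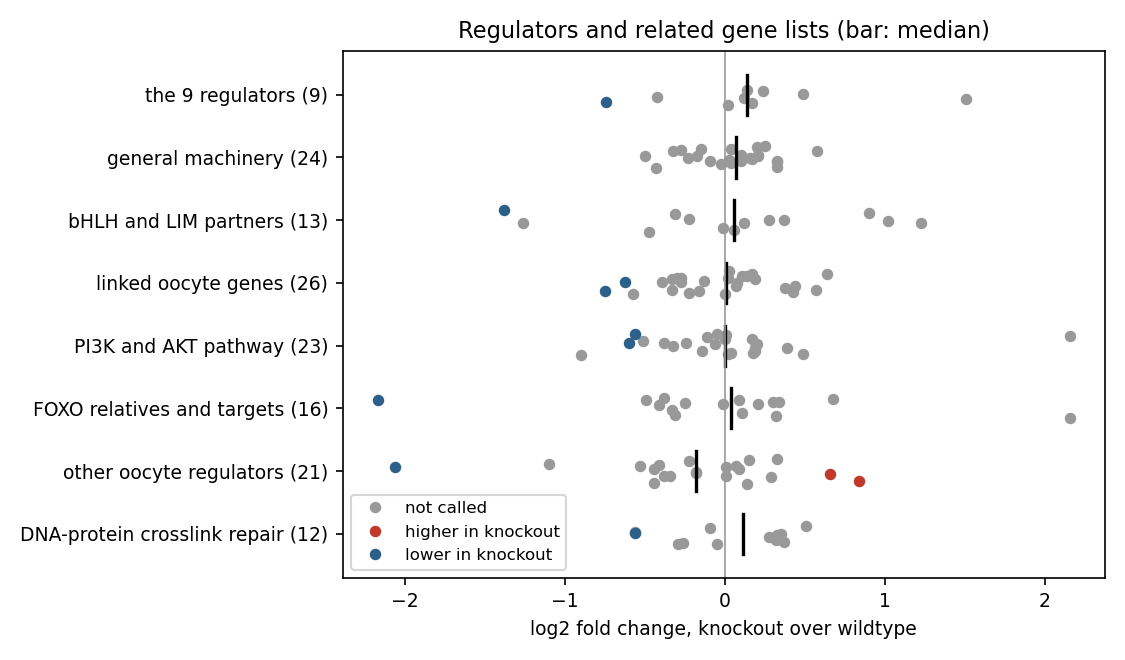
Log2 fold changes, knockout over wildtype, of the 9 regulators and of 7 related gene lists with the number of tested genes in brackets; each point is a gene, colours show calls at an adjusted p under 0.05 and bars are medians. The 9 regulators had a median of 0.14, and the list medians lay between -0.18 and 0.11.

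The genes whose pattern over the 6 libraries was most like that of Foxr1 were Nkap, Krt88 and Gm2042. Their Pearson correlations of log2(CPM + 0.5) with Foxr1 were 0.9993, 0.9990 and 0.9988 over 6 libraries. All of these genes had a high value in wildtype replicate 1, which enters the correlations. Nkap had 17.8, 18.3 and 18.1 CPM in knockout libraries, against 29.5, 22.8 and 22.2 CPM in wildtype libraries, and was not called (log2 fold change -0.46). Krt88 had 3.92, 4.17 and 4.24 CPM in knockout libraries, against 14.2, 7.67 and 7.46 CPM in wildtype libraries, and was called lower (log2 fold change -1.26, and -0.88 without wildtype replicate 1). Gm2042 had 63.0, 65.2 and 63.4 CPM in knockout libraries, against 122, 87.4 and 84.7 CPM in wildtype libraries, and was called lower (log2 fold change -0.62, and -0.43 without wildtype replicate 1). In all 3, as in Foxr1, the knockout libraries lay close together, and wildtype replicate 1 stood above the other 2 wildtype libraries. This likeness follows from choosing the genes by their correlation with Foxr1 and is not a separate result. The call was lost without any knockout library for Krt88, with adjusted p up to 0.126, and in 5 of 6 such fits for Gm2042, with adjusted p up to 0.172.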

How the data were processed

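RNA of pooled mouse GV oocytes was measured in 3 knockout and 3 wildtype libraries. Per the labels' protocols, RNA came from the PicoPure kit, cDNA from the SMARTer Ultra Low Input kit and libraries from NexteraXT, with single-end sequencing. Per the submitters' processing notes, STAR 2.7.11a and featureCounts 2.0.3 were used with GRCm38.p6. The annotation, strand setting and treatment of reads with several matches were not given in these sources. The authors deposited whole-number counts per Entrez gene, 1 table per library, which were used as raw counts.

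Of 27179 identifiers, 25275 were named from a RefSeq table of GRCm38.p6 and 18 from GENCODE M21 metadata. Genes were kept with edgeR's filterByExpr (minimum count 10), scaled by TMM and tested with the quasi-likelihood F test of edgeR 4.0.16 (R 4.3.3), with Benjamini-Hochberg adjustment over 14957 genes; the procedure was tested on simulated data. CPM values are TMM-scaled. Values per kb divide by the union of GENCODE M21 exons. Log2 ratios used a pseudocount of 0.5 counts and an exact permutation test.

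Members and gene lists were chosen with earlier results of these data known. All members were named; from each list up to 6 called genes were named, filled to 3 by smallest p, then the 3 patterns most like that of a called member. Alternatives were DESeq2 size factors, upper quartile scaling, totals only, no filter, a filter of 5 CPM in 3 libraries, DESeq2 1.42.0, limma-voom (limma 3.58.1), a replicate block, a pseudocount of 5 counts for the ratios and each library left out in turn. Total counts were 33698776, 37718598 and 37966868 in knockout and 38831227, 26956387 and 22492228 in wildtype libraries. No molecular identifiers are described. Values under about 1 CPM rest on few reads, so their SD over 3 libraries, which includes counting error, is itself uncertain.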

Additional observations from a re-analysis of the deposited data

How the results depend on the processing

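All 9 regulators could be fitted under 14 alternatives, except Sohlh1 under the filter of 5 CPM in 3 libraries, where it was too low. The median of all genes moved by less than 0.1 under any scaling. The 1 regulator called, Foxr1, was lower in every fit; the count of regulators called, and of those lower, was 0 with upper quartile scaling, library totals only, the filter of 5 CPM in 3 libraries and the replicate block, and 0 to 2 when a library was left out. Its adjusted p was 0.0613 with upper quartile scaling and with totals only, 0.0636 with the stricter filter, and 0.0949 (log2 fold change -0.71) with the replicate block. No regulator was called higher in any of the 14. Figla changed sign within its error, at -0.0043 with the stricter filter and -0.02 to 0.03 when a library was left out, and Sohlh1 ranged from -0.16 to 2.07. Of all genes, 1676 were called, against 1038 with the stricter filter, 2671 with DESeq2, 537 with the replicate block and 357 to 5199 when a library was left out. The 10 called genes of the related lists became 18 with DESeq2, 3 with the block and 1 to 54 when a library was left out. The cause was not tested. Same-numbered libraries did not deviate together over all genes (correlations -0.06, 0.01 and -0.09). Deviations from means of 3 libraries, with wildtype replicate 1 apart, cannot decide whether same-numbered pools were handled together. The labels do not state a pairing. For the ratios, the block takes the mean of the 3 same-numbered differences, which equals the difference of the group means. The values of 1.01 for Taf4b to Taf4 and 0.14 for Tbpl2 to Tbp therefore could not change. The exact permutation test by sign flips of these differences gave p = 0.25 and 0.5, against exact permutation p = 0.1 and 0.4 without the block. When a library was left out, the differences were 0.61 to 1.30 and 0.03 to 0.24. Sohlh1 had 4 to 59 counts a library, the highest in knockout replicate 1.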
